A study of Mus musculus with 6 samples.

Results

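The cytosolic ribosomal protein genes were taken from a table of 46517 gene entries by their names. A member had a symbol of the Rpl, Rps or Rplp kind without the pseudogene suffix, or was Rpsa, Rpl3l, Rpl22l1, Rpl7l1 or Rpl36al. This gave 83 members, 50 with names of the large (60S) subunit and 33 with names of the small (40S) subunit. GENCODE annotated 81 of them as protein coding, and Rps3a2 and Rps3a3 as processed pseudogenes. The name pattern left out the ribosomal proteins Fau and Rack1, whose symbols follow another style. The rule uses names alone, though it was written with earlier results of these data known.

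Messenger RNA was profiled in cardiomyocytes isolated from the hearts of C57BL/6 mice aged 3 months. There were 3 wild-type libraries and 3 libraries of genotype TFEB-/-, named below by group and number, and all values are given in the order 1, 2, 3. TFEB is a transcription factor known for switching on lysosomal and autophagy genes, and the sources used here do not say how or in which cells the gene was disrupted. They also do not say that each library came from a separate animal, so p-values measure the spread between these samples only. The values are taken to be CPM, counts scaled to a common library total, rounded to whole numbers.

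A cytosolic ribosome is built from ribosomal RNA and a fixed set of ribosomal proteins, most of them present once per particle, and it translates nearly all messenger RNA of the cell. The messenger RNAs of ribosomal proteins usually begin with a run of pyrimidines at their 5′ end, the terminal oligopyrimidine (TOP) tract, through which mTORC1 signalling controls their translation. A few members have paralogs with a tissue pattern of their own. Rpl3l takes the place of Rpl3 in ribosomes of heart and skeletal muscle, and Eef1a2 stands to Eef1a1 in a like way among the elongation factors. Mammalian genomes also carry very many processed pseudogenes of ribosomal proteins, whose sequence can be almost the same as the parent transcript.

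Tfeb itself was measured at 17, 30 and 23 CPM in wild type, compared with 6, 5 and 7 CPM in TFEB-/-, the check of the labels (log2 fold change -1.85, SE 0.24, limma adjusted p = 0.0267). Transcripts of the mitochondrial genome took 30.7 to 44.6% of the wild-type and 22.2 to 30.3% of the TFEB-/- CPM, and the 12437 tested genes had a median log2 fold change of 0.235. Cardiomyocyte markers (10 of 10 tested, none past the threshold) summed to between 54246 and 73771 CPM in wild type and between 65502 and 88831 in TFEB-/-. Some marker sums of other cells were higher in TFEB-/-. They were 245 to 271 CPM against 325 to 414 for fibroblasts (2 of 10 genes past the threshold, higher), 233 to 277 against 307 to 393 for smooth muscle and pericytes (1 of 8, higher), and 19 to 30 against 40 to 48 for macrophages (0 of 9 tested, with Ptprc listed at 0). Endothelial markers summed to 538 to 596 CPM against 457 to 586 (0 of 12 past the threshold), and blood cell markers to 5 to 37 against 6 to 10 (0 of 3 tested, with Alas2, Cd79a, S100a8 and S100a9 listed at 0). Skeletal muscle markers, nearly all of it Ckm, which the heart also makes, summed to 2082 to 2245 against 2442 to 3270 (1 of 3 tested past the threshold, Tnnt3, with Myh1, Myh4 and Actn3 listed at 0). Immediate early genes summed to 3505 to 4349 CPM in wild type, to 6224 and 6544 in TFEB-/- 1 and 3, and to 2750 in TFEB-/- 2. By list, the median log2 fold change was 0.24 for fibroblast, -0.03 for smooth muscle and pericyte, and 0.61 for macrophage markers. The smooth muscle and pericyte median was below the 0.235 of all tested genes, and the fibroblast median was level with it. With each library scaled by the median ratio of its genes, 0 fibroblast markers and 1 smooth muscle marker were past the threshold. The part of the mitochondrial share or of any of these marker sums in the results that follow was not tested.

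Near-identical copies took up much of the signal of the ribosomal proteins. An entry outside the name rule was called a copy where at least 50% of the 31-base words of its transcripts also occurred in those of a member. There were 302 such copies, 60 of them above 0 in some library, and 45 of the 83 members had at least 1 copy above 0. The 302 include short snoRNA and miRNA entries whose words occur in a member, all of them listed at 0. The clearest case was Rps2 (chromosome 17, 24718116 to 24721929, plus strand, GRCm38), which lies at the entry of the messenger RNA channel of the 40S subunit. Its coding sequence differed from that of the pseudogene entry Rps2-ps10 at 5 of 896 aligned bases. The stretch of coding positions 394 to 453 with the most differences is shown here, with the letters that differ from Rps2 in capitals.
Rps2: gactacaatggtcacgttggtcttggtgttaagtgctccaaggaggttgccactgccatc
Rps2-ps10: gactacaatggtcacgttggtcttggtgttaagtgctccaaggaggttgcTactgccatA

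Rps2 was deposited at 4, 323 and 242 CPM in wild type, compared with 7, 5 and 287 CPM in TFEB-/-. Rps2-ps10 held 597, 359 and 260 CPM in the wild-type and 684, 526 and 301 CPM in the TFEB-/- libraries. The libraries in which Rps2 was nearly absent, wild type 1 and TFEB-/- 1 and 2, were those with the highest values of the pseudogene entry. Summed over all copies, Rps2 came to 602, 684 and 503 CPM against 692, 531 and 588, and the groups overlapped. The log2 fold change moved from -1.63 (SE 2.45) for Rps2 alone to 0.02 (SE 0.16) for the sum, with limma adjusted p of 0.691 and 0.99.

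**Figure D1:**
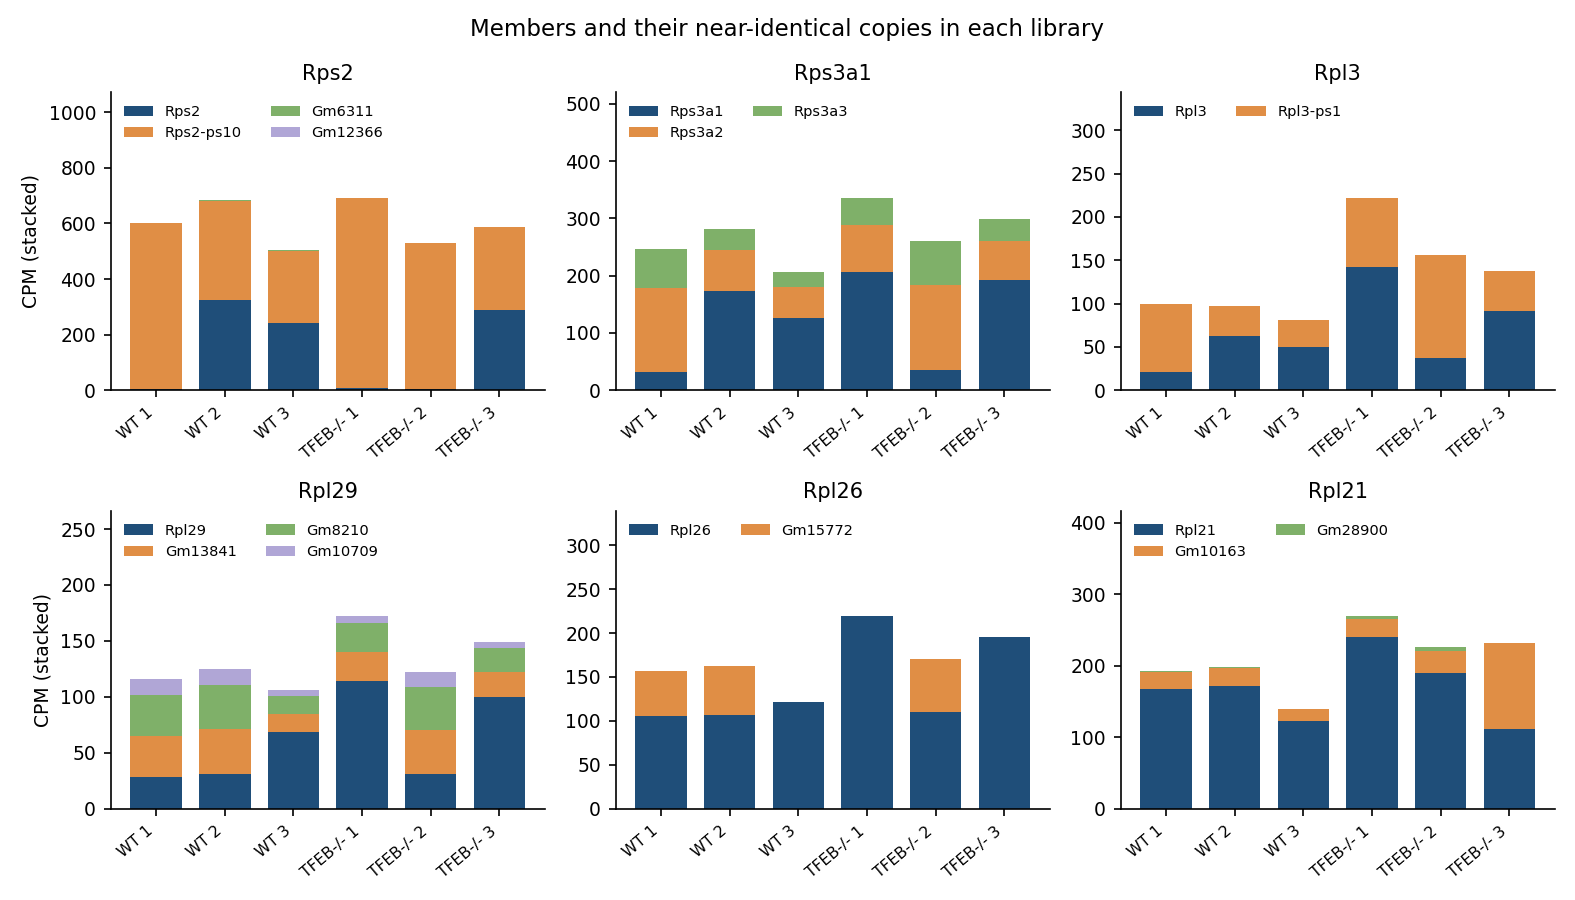
Stacked bars give the CPM of a member (dark blue) and of its near-identical copies in each of the 6 libraries, for 6 members. The division between member and copies changed from library to library within each genotype, as for Rps2 at 4 and 323 CPM in wild type 1 and 2, while the summed heights of Rps2 stayed between 503 and 692 CPM.

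The same held for Rps3a, a protein of the 40S subunit near the messenger RNA exit that is represented by 3 entries. Rps3a1, the gene with introns, was measured at 31, 174 and 126 CPM in wild type, compared with 206, 35 and 192 CPM in TFEB-/-. The pseudogene entry Rps3a2, which matches its coding sequence at 99.5% of the aligned bases, was measured at 148, 71 and 54 CPM against 83, 149 and 69. Rps3a3, at 98.9% identity, was measured at 67, 37 and 27 CPM against 47, 76 and 38. Wild type 1 and TFEB-/- 2 were low for Rps3a1 and high for both of the others. The 3 entries together came to 246, 282 and 207 CPM against 336, 260 and 299 (log2 fold change 0.29, SE 0.16, limma adjusted p = 0.309).

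Other members changed places with their copies in other libraries. Rpl26, at the rim of the peptide exit tunnel, was measured at 106, 107 and 122 CPM against 219, 110 and 196. Its copy Gm15772 held 51 and 56 CPM in wild type 1 and 2 and 60 CPM in TFEB-/- 2, and was listed at 0 in the other 3 libraries. Rpl21 was measured at 168, 171 and 123 CPM against 240, 190 and 112, with its copy Gm10163 at 120 CPM in TFEB-/- 3 and at 17 to 30 CPM elsewhere. Rpl29 was measured at 28, 31 and 69 CPM against 114, 31 and 100. Its copies Gm8210 and Gm13841 have the same transcript sequence and were given the same values, 37, 40 and 16 CPM against 26, 39 and 22. Rpl30 was measured at 116, 72 and 93 CPM against 126, 125 and 129, and its copy Gm12191 was listed at 0 except for 37 CPM in wild type 2. Rpl21, Rpl26, Rpl30, Rps3a1 and Rps3a3 were chosen for description after their values were seen.

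For some members nearly all of the signal stood in a copy in every library. Rpl5, which carries 5S ribosomal RNA into the large subunit, was deposited at 8, 8 and 6 CPM against 12, 12 and 8. Its copy Gm15500, annotated as a transcribed processed pseudogene, held 248, 242 and 188 CPM against 290, 247 and 270. Of the summed CPM, 96.5% of Rpl5, 95.3% of Rpl12, 92.5% of Rpl27, 84.9% of Rpl10 and 75.9% of Rps2 belonged to copies. These values describe how the authors' counting divided reads between near-identical sequences and do not show that a pseudogene was transcribed.

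Adding the copies removed most of the spread between libraries of 1 genotype. Of the 83 members, 10 differed by more than 2-fold between the highest and lowest library of a group, and all 10 had a copy or shared sequence with another member. After the copies were added and the 3 Rps3a entries joined, which left 81 sums, none differed by more than 2-fold. Rpl3, Rpl37a and Rpl38 were the only sums that still differed by more than 1.5-fold, compared with 17 members alone. Both sets of values are given below, since the sums include entries whose own transcription is unknown.

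Per length of transcript, the members lay within a narrower range once copies were included. Mean CPM per kilobase over the 6 libraries ran from 4.40 for Rpl5 to 650.9 for Rps29, with a median of 205.0 and an SD of 1.35 on the log2 scale. With copies it ran from 26.3 for Rpl7l1 to 670.9 for Rps29, with a median of 233.2 and an SD of 0.877. Rps29, a zinc-binding protein of the 40S head, Rps2 and Rplp1, an acidic protein of the stalk that recruits elongation factors, stood at the top with copies, at 670.9, 623.7 and 601.5 CPM per kilobase. Rpl41, the smallest protein of the ribosome, followed at 530.5 CPM per kilobase, and Rps15 came next at 494.7. At the low end, Rpl7l1 and Rpl22l1, 2 paralogs, came to 26.3 and 27.2 CPM per kilobase. Rps20 stood next at 30.7, but its length was read from a transcript of 3706 bases. The median transcript length of Rps20 was the same, so this low level follows the long annotated transcript. The order at the top depends both on the copies and on the choice of transcript. Without copies, Rps29, Rplp1, Rpl41 and Rps15 led at 650.9, 601.2, 530.5 and 494.7 CPM per kilobase, and Rps2 fell to 150.4. With the median transcript length of each gene, also without copies, Rps29 stood at 650.9 and was followed by Rplp0 at 610.7. Next came Rplp1 at 601.2, Rpl41 at 512.8 and Rps24 at 497.5 CPM per kilobase. Rps2 moved from position 56 of the 83 members to position 2 of the 81 sums when its copies were added.

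**Figure D2:**
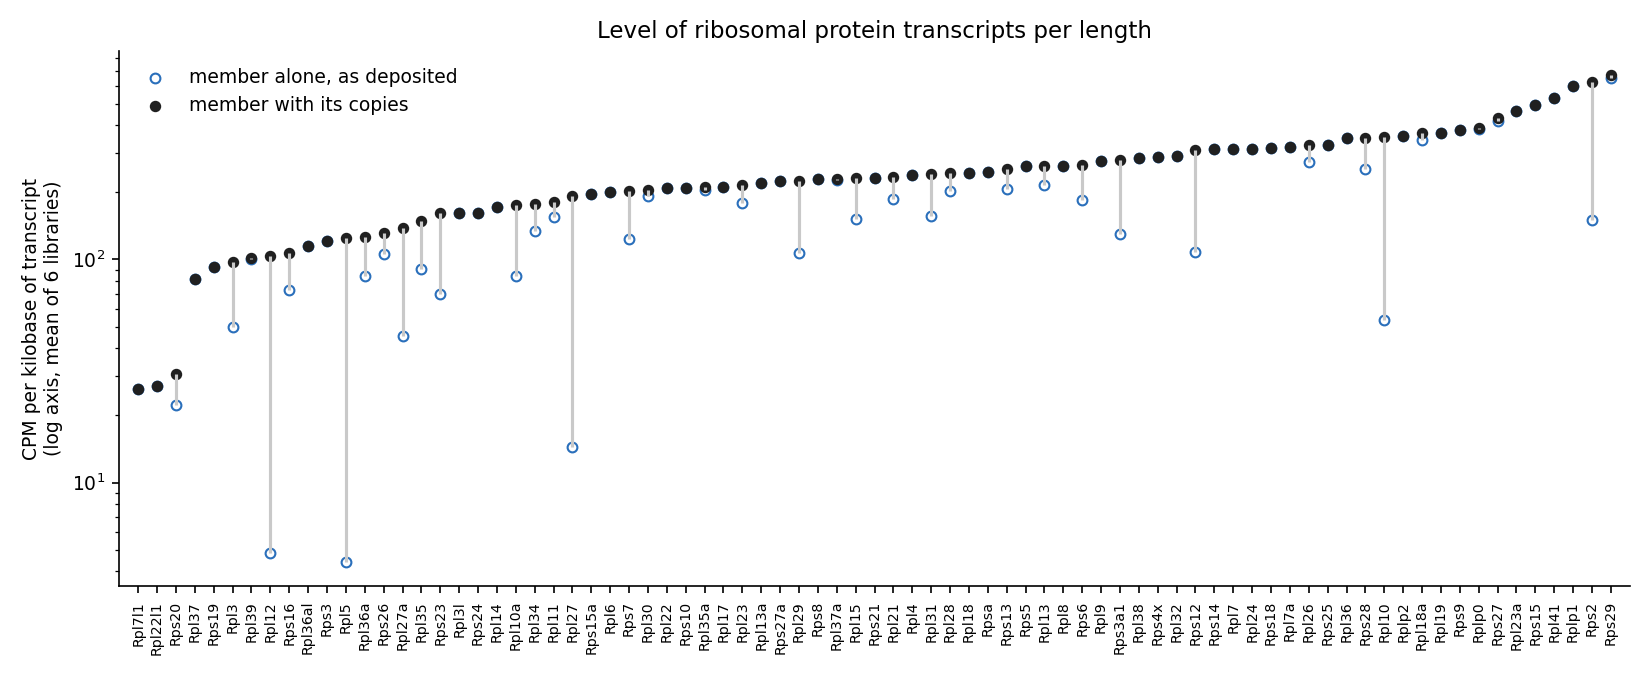
Ribosomal proteins, without the members not reported here, are drawn at their mean CPM per kilobase over 6 libraries on a log axis, alone as deposited (open blue circles) and with their near-identical copies (filled circles), in order of the summed level. The long grey lines of Rpl5, Rpl12, Rpl27, Rpl10 and Rps2 show where most of the signal stood in copies, and the filled circles run from 26.3 to 670.9 CPM per kilobase.

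Ribosomal protein transcripts were slightly higher in TFEB-/- than in wild-type libraries, by little more than the tested genes as a whole. All 83 members passed the filter on low values. The median log2 fold change of the members was 0.345, or 0.11 above the median of all tested genes. The fold change was positive for 80 of 83 members, and 68 were above the median of all genes. The median of the members was 0.222 without wild type 3, and its distance from all genes ran from 0.08 without wild type 3 to 0.20 without wild type 2. With libraries weighted by their quality the distance was 0.03, and 51 members were above the median of all genes. In limma's test with Benjamini-Hochberg adjustment over all tested genes, 1 member was past the threshold of 0.05 as higher and 0 as lower, where 3.92% of all genes were called higher and 0.523% lower. At an unadjusted p below 0.05, 22 members were higher and 0 lower, against a background of 21.1% and 2.30% of genes. In these bulk samples, fewer cells of a type and less RNA per cell cannot be told apart.

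The single call was Rpl12, a protein of the stalk base, which was listed at 5 CPM throughout wild type and at 7 CPM throughout TFEB-/- (log2 fold change 0.45, SE 0.04, limma adjusted p = 0.0107). As the values are whole numbers, the spread within each group was listed as 0. Together with its copies, mainly Gm10275, Rpl12 came to 112, 127 and 101 CPM against 163, 123 and 146, with overlapping groups (log2 fold change 0.34, SE 0.14, limma adjusted p = 0.233). The call on the deposited values was also lost without wild type 2 (adjusted p = 0.0513 by limma) and without TFEB-/- 3 (adjusted p = 0.0547 by limma), and under robust fitting (0.106) and quantile normalization (0.299).

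The libraries of each genotype did not stand at 1 level. Relative to the wild-type mean of each member, the median log2 deviation over the 83 members was 0.06, 0.18 and -0.24 in wild type and 0.52, 0.19 and 0.37 in TFEB-/-. All tested genes gave 0.13, 0.00 and -0.16 against 0.36, 0.14 and 0.20. TFEB-/- 2 was thus at the level of wild type 2 for the ribosomal proteins, and the groups touched at these libraries. All 3 TFEB-/- libraries were above all 3 wild-type libraries for 35 members (42.2%), compared with 21.2% of all genes, and they were below for 0 members, compared with 2.28%. Leaving out a library moved both the members and the background. The count was 59 members (71.1%) without wild type 2, where 27.4% of genes did not overlap as higher, and 69 (83.1%) without TFEB-/- 2, where 33.6% did. Without wild type 1 it was 37 (44.6%), close to the background of 37.7%. Without each of the other 3 libraries it was 36 or 37, against a background of 22.1 to 24.3%.

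With copies included, the picture on the deposited scale was the same in the centre and tighter around it. The median log2 fold change of the 81 sums was 0.345, and the SD over them fell to 0.140 from 0.271 for the members alone. In 46 of 81 sums (56.8%) all TFEB-/- libraries were above all wild-type libraries, where 21.2% of genes were, and 0 sums were past limma's threshold, where 3.93% of genes were called higher. At an unadjusted p below 0.05, 34 sums were higher (background 21.2%) and 0 lower (background 2.31%).

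**Figure D3:**
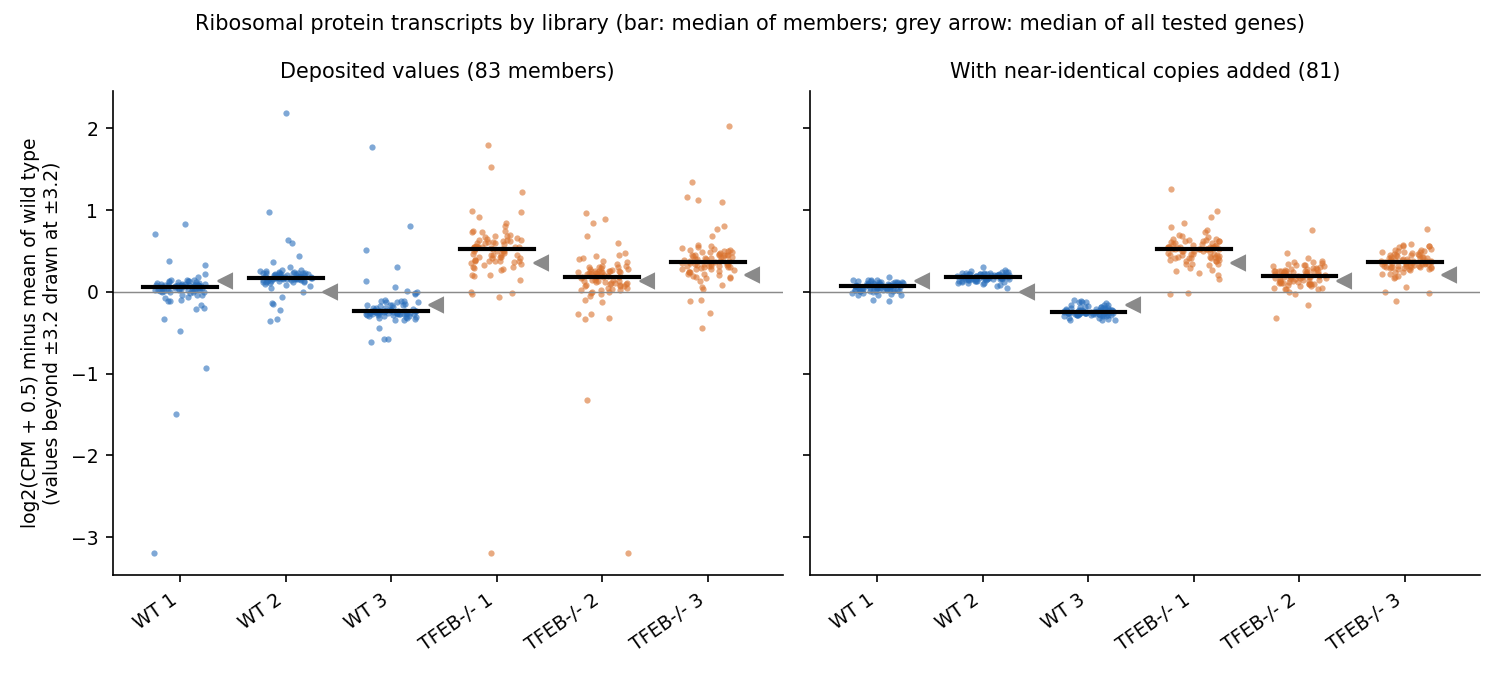
Each point is 1 ribosomal protein in 1 library, as log2(CPM + 0.5) minus the mean of the 3 wild-type libraries, for members as deposited (left) and with copies (right). Black bars mark the median of the members and grey arrows that of all tested genes. The bars of wild type 2 (0.18) and TFEB-/- 2 (0.19 on the left, 0.20 on the right) are level, and adding copies pulls the points toward the bars.

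Scaling each library by the median ratio of its genes, which set the median of all genes near 0, left a smaller difference. The median log2 fold change of the 83 members was then 0.11, with 67 members positive, 8 non-overlapping as higher (background 14.3%) and 1 as lower (background 11.8%), and 0 past the threshold (background 3.87% higher, 1.61% lower). At an unadjusted p below 0.05, 5 members were then higher (background 12.5%) and 0 lower (background 9.79%). With copies and this scaling, the library medians were -0.08, 0.15 and -0.08 in wild type and 0.16, 0.05 and 0.16 in TFEB-/-, so that wild type 2 stood above TFEB-/- 2. There were 13 sums with no overlap as higher, against 14.3% of genes, and 2 as lower, Rpl9 and Rps2, against 11.8%. The count of 13 became 60 (74.1%, background 20.7%) without wild type 2 and 36 (44.4%, background 20%) without TFEB-/- 2. Without each of the others it was 13 or 14, which is 16.0 to 17.3% of the sums, against a background of 16.9 to 20.4%. The median log2 fold changes of the large and small subunit sums were 0.09 and 0.14 under this scaling, and 0.33 and 0.38 on the deposited scale with copies.

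Summed over all members, ribosomal protein transcripts made up 1.15, 1.29 and 0.967% of the CPM in wild type and 1.60, 1.25 and 1.47% in TFEB-/-. The means were 1.14% ± 0.161 (SD, n = 3) and 1.44% ± 0.175 (SD, n = 3), and the ranges overlapped at wild type 2 and TFEB-/- 2. As a share of the CPM outside the mitochondrial genome, with copies, the members took 2.02, 2.29 and 2.03% in wild type and 2.45, 2.17 and 2.29% in TFEB-/-. Here the means of 2.12% ± 0.155 and 2.30% ± 0.142 (SD, n = 3 each) were closer. The log2 ratio of summed large to summed small subunit members, with copies, was 0.53, 0.50 and 0.51 in wild type and 0.55, 0.53 and 0.54 in TFEB-/-, and the balance of the subunits thus differed by 0.02 between the means.

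**Figure D4:**
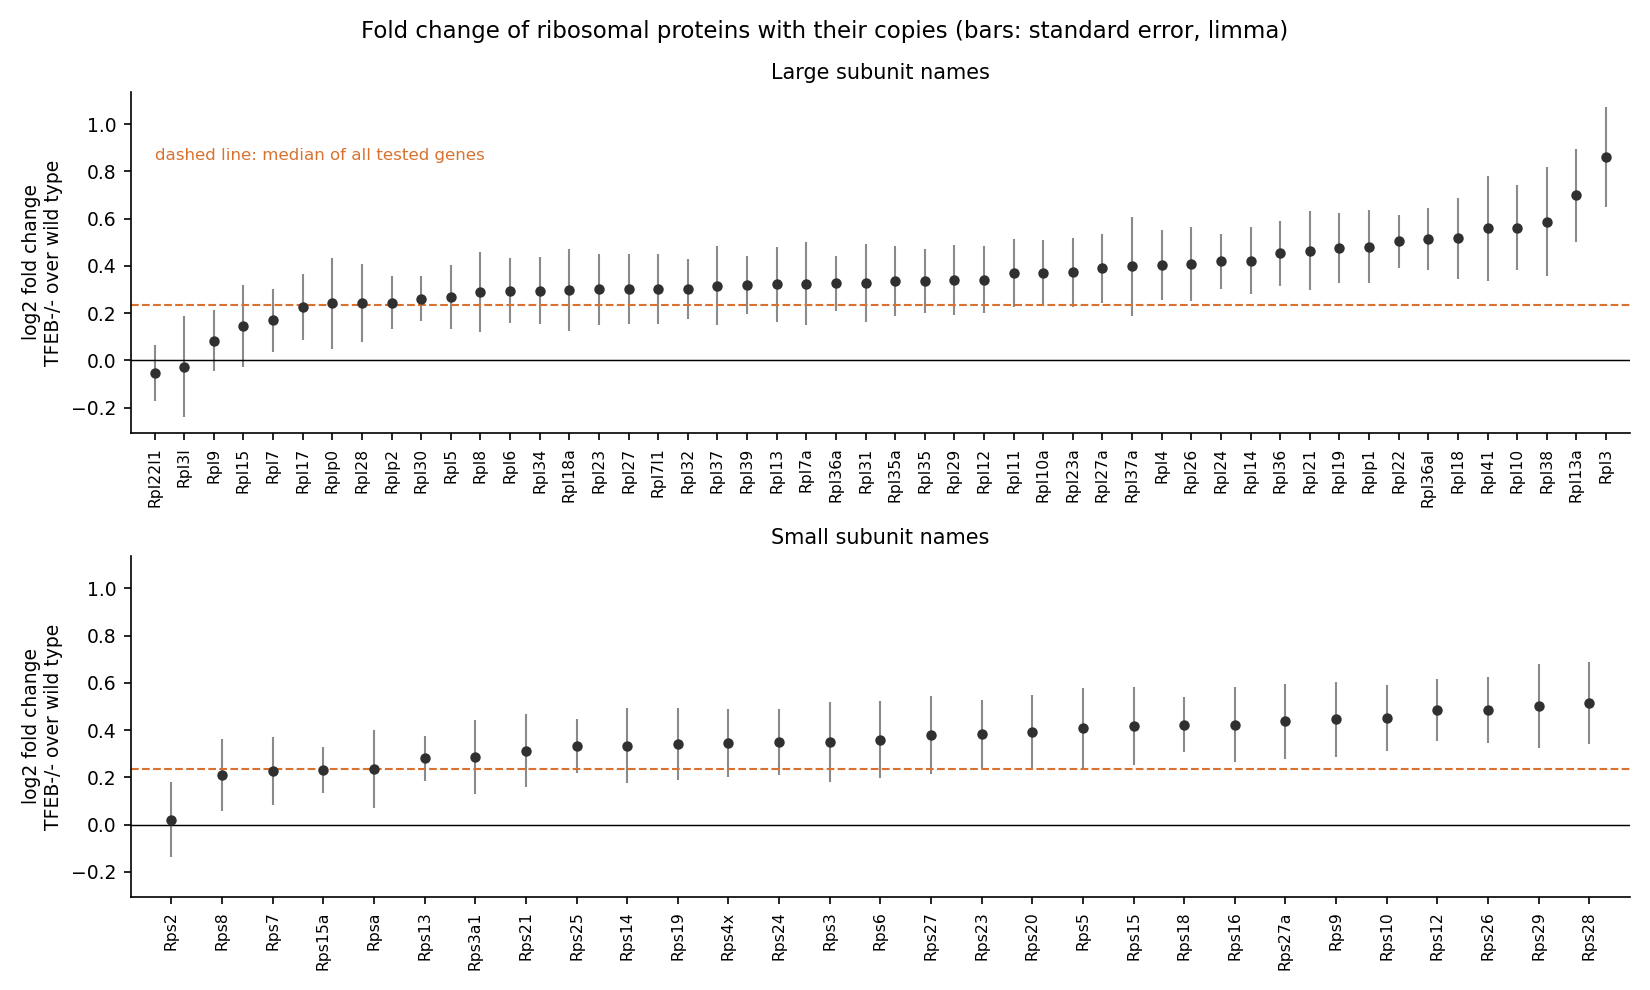
The log2 fold change of the sums with copies, TFEB-/- over wild type on the deposited scale, is drawn with its standard error from limma for the large (top) and small (bottom) subunit names, without the members not reported here. Most points lie between 0.2 and 0.6 around or above the dashed median of all tested genes, Rpl22l1, Rpl3l, Rpl9 and Rps2 are lowest, and Rpl3 is highest at 0.86.

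By place in the ribosome, the stalk that binds elongation factors is described first. Rplp0, its anchor, was measured with its copy at 524, 555 and 382 CPM against 640, 481 and 597, with overlapping groups. Rplp1 came to 250, 281 and 219 CPM against 404, 298 and 349, without overlap, and had a log2 fold change of 0.48 (SE 0.15), where its partner Rplp2 had 0.24 (SE 0.11). Rplp2 was measured at 133, 154 and 125 CPM against 168, 146 and 174. Neither was past the threshold (limma adjusted p = 0.159 for Rplp1 and 0.255 for Rplp2 with copies). After median-ratio scaling with copies the groups of Rplp1 overlapped, with 300.6 in wild type 2 and 293 in TFEB-/- 2.

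Of the 2 proteins that bind 5S ribosomal RNA and, when free, the p53 regulator Mdm2, Rpl5 with its copies came to 256, 250 and 194 CPM against 302, 259 and 278, without overlap. Rpl11 with its copies came to 137, 146 and 112 CPM against 189, 149 and 172, also without overlap. In both, the lowest TFEB-/- library was 3 CPM above the highest wild-type library (limma adjusted p = 0.277 and 0.212). The groups of both overlapped after median-ratio scaling with copies.

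Around the peptidyl transferase centre, Rpl10, which joins the large subunit late in its assembly, was measured at 37, 36 and 32 CPM against 59, 53 and 40. Its copy Rpl10-ps3 held 206, 219 and 155 CPM against 333, 232 and 295, and the sum had a log2 fold change of 0.56 (SE 0.18, limma adjusted p = 0.16). Rpl13a, on the surface of the large subunit and known as a translational silencer once released from it, had no copy above 0. It was measured at 182, 204 and 141 CPM against 327, 232 and 296 (log2 fold change 0.70, SE 0.20, limma adjusted p = 0.13). Every TFEB-/- library was above every wild-type library for Rpl13a, also after median-ratio scaling with copies (0.46, SE 0.13, limma adjusted p = 0.0932). Rpl41 was measured at 233, 253 and 169 CPM against 385, 259 and 321, and Rpl38 at 75, 91 and 67 CPM against 154, 92 and 110, with 1 CPM between the groups. For Rpl41 and Rpl38 the groups overlapped after median-ratio scaling. Rpl9, at the base of the stalk region, had one of the smallest fold changes, with 191, 207 and 153 CPM against 202, 186 and 190 (log2 fold change 0.08, SE 0.13). Rpl10 and Rpl38 were named after their values were seen.

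In the small subunit, Rps6, the substrate of S6 kinase, was measured at 153, 168 and 126 CPM against 183, 160 and 187, with overlapping groups and a log2 fold change of 0.25 (SE 0.13). With copies it was 0.36 (SE 0.16, limma adjusted p = 0.253). Rps27a, made as a fusion with ubiquitin, was measured at 129, 141 and 97 CPM against 176, 156 and 160, without overlap (log2 fold change 0.44, SE 0.16, limma adjusted p = 0.195). Its groups overlapped after median-ratio scaling. Rpsa, also known as the laminin receptor, was measured at 381, 407 and 298 CPM against 483, 366 and 426 and lay at the median of all genes (log2 fold change 0.23, SE 0.17). Rps12, which had the highest deposited fold change among the small subunit members, was measured at 29, 50 and 34 CPM against 35, 72 and 79. With copies Rps12 came to 119, 134 and 104 CPM against 185, 149 and 165 (log2 fold change 0.48, SE 0.13, limma adjusted p = 0.119). Rps10 and Rps15 had log2 fold changes of 0.45 and 0.42, neither of them past the threshold. Rps7, in contrast, had a deposited log2 fold change of 0.06 (SE 0.29), with 86, 146 and 71 CPM against 110, 90 and 102, where its copy Gm6472 held 69, 31 and 56 CPM against 83, 74 and 75. Their sum had a log2 fold change of 0.23 (SE 0.14).

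Rpl3 (chromosome 15, 80077791 to 80091868, minus strand, GRCm38) and its muscle paralog Rpl3l (chromosome 17, 24727820 to 24736143, plus strand) encode alternative forms of the protein that reaches toward the peptidyl transferase centre. The first 60 coding bases show how the 2 genes and the copy Rpl3-ps1 differ, with the letters that differ from Rpl3 in capitals.
Rpl3: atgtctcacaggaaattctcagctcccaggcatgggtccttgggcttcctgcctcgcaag
Rpl3-ps1: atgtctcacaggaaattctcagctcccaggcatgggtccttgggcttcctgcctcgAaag
Rpl3l: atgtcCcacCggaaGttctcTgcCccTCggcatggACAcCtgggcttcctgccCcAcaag

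Over the coding sequence Rpl3 and Rpl3-ps1 differed at 2 of 1209 aligned bases (99.8% identity), and Rpl3 and Rpl3l at 304 of 1205 (74.8% identity). Rpl3l and Rpl3 shared no 31-base word, and no copy of Rpl3l was found. Reads of Rpl3l can thus be told from those of Rpl3 at most positions, and reads of Rpl3 from those of its pseudogene at few.

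Rpl3l did not differ between the genotypes beyond its spread. It was measured at 216, 274 and 184 CPM in wild type, compared with 220, 178 and 263 CPM in TFEB-/- (224.7 ± 45.6 and 220.3 ± 42.5, SD, n = 3 each), and the groups overlapped fully (log2 fold change -0.03, SE 0.21, limma adjusted p = 0.991). Rpl3 alone was measured at 21, 63 and 50 CPM against 142, 37 and 91, also with overlap, and Rpl3-ps1 at 79, 34 and 31 CPM against 80, 119 and 46. Together they came to 100, 97 and 81 CPM in wild type and 222, 156 and 137 CPM in TFEB-/-, without overlap. This was the highest fold change among the 81 sums (log2 fold change 0.86, SE 0.21, limma adjusted p = 0.0992).

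After median-ratio scaling, Rpl3 with its copy was the only sum past the threshold, where 3.91% of genes were called higher, and none was called lower, where 1.69% of genes were. Its scaled level was 98.3, 103.8 and 99.1 in wild type and 187.5, 153.4 and 128.9 in TFEB-/-, 1.56-fold higher in the mean (log2 fold change 0.62, SE 0.14, limma adjusted p = 0.0478). The call was lost when any 1 of the 6 libraries was left out, with limma adjusted p between 0.0522 and 0.138 and log2 fold changes between 0.48 and 0.75. All 3 TFEB-/- libraries stayed above all wild-type libraries on both scales. Fibroblast, smooth muscle and macrophage marker sums were higher in the same libraries, as given above. Relative to all genes, the median log2 fold change of these lists was 0.006, -0.27 and 0.38, in that order. The part of these cells in the values of Rpl3 was not tested.

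As a share of the summed Rpl3 and Rpl3l level per kilobase, with copies, Rpl3l made up 68.0, 73.5 and 69.1% in wild type and 49.3, 52.9 and 65.4% in TFEB-/- (70.2% ± 2.94 and 55.9% ± 8.42, SD, n = 3 each). The size of these shares depends on the transcripts taken. The chosen ones had 1351 bases for Rpl3 and 1375 for Rpl3l, where the median lengths were 816 and 1033. The log2 ratio of Rpl3l to Rpl3 with copies was 0.89 lower in TFEB-/- (1.26 ± 0.205 against 0.37 ± 0.501, SD, n = 3 each). The exact two-sided permutation p was 0.1, the smallest that 3 against 3 allows, and 0.133 adjusted over the 4 paralog pairs with copies. On the deposited values without the copy the ratio was 0.97 lower, with overlap between the groups. There the exact two-sided permutation p was 0.3, and 0.3 adjusted over the 4 pairs (n = 3 each).

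**Figure D5:**
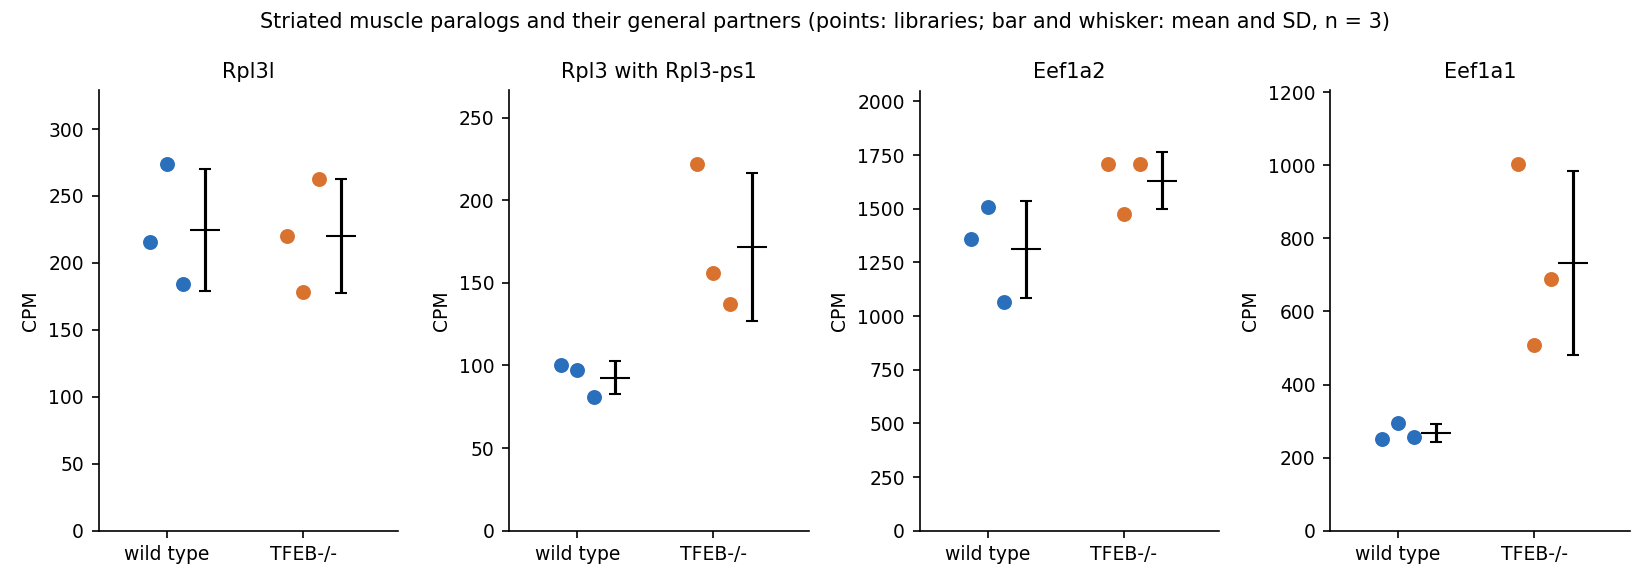
Points give the CPM of each library for the striated muscle forms Rpl3l and Eef1a2 and their general partners Rpl3, with its copy, and Eef1a1, and whiskers the mean and SD (n = 3). The TFEB-/- points overlap with wild type for Rpl3l and Eef1a2 and lie above all wild-type points for Rpl3 with Rpl3-ps1 (137 to 222 against 81 to 100 CPM) and for Eef1a1 (507 to 1004 against 251 to 294 CPM).

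The other 3 paralog pairs, which shared no 31-base word either, differed less. Rpl22, a protein of the outer surface of the large subunit near the tunnel exit, was measured at 86, 87 and 72 CPM against 128, 106 and 114 (log2 fold change 0.50, SE 0.11, limma adjusted p = 0.0855). Its paralog Rpl22l1 stayed at 14, 18 and 14 CPM against 15, 15 and 14 (log2 fold change -0.05, SE 0.12). The log2 ratio of Rpl22l1 to Rpl22 was lower in each TFEB-/- library than in any wild-type library, by 0.56 in the mean (-2.38 ± 0.175 against -2.94 ± 0.141, SD, n = 3 each). Its exact two-sided permutation p was 0.1, adjusted over the 4 pairs to 0.2 on the deposited values and 0.133 with copies. Per length of the chosen transcripts Rpl22l1 made up 13.9% ± 1.46 of the pair in wild type and 9.84% ± 0.885 in TFEB-/- (SD, n = 3 each). The size of this share depends on the transcript taken for Rpl22. Its mean level was 208.5 CPM per kilobase with the chosen transcript of 474 bases and 48.3 with the median length of 2048 bases. For Rpl22l1 the 2 levels were 27.2 and 27.9.

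Rpl36al was measured at 55, 54 and 41 CPM against 73, 69 and 71, and Rpl36a at 37, 41 and 33 CPM against 48, 42 and 43. Their log2 ratio on the deposited values was higher in TFEB-/- by 0.25 without overlap (0.42 ± 0.131 against 0.68 ± 0.066, SD, n = 3 each). The exact two-sided permutation p was 0.1, adjusted 0.2 over the 4 pairs. With copies, Rpl36a came to 56, 60 and 47 CPM against 73, 63 and 68. The ratio was then 0.19 higher, without overlap (-0.12 ± 0.088 against 0.06 ± 0.065, SD, n = 3 each). Its exact two-sided permutation p was again 0.1, adjusted 0.133 over the 4 pairs with copies. Rpl7l1, named as a paralog of Rpl7, was measured at 35, 33 and 25 CPM against 39, 35 and 40, and Rpl7 at 263, 278 and 204 CPM against 285, 268 and 278. This log2 ratio differed by 0.13, with overlapping groups. Its exact two-sided permutation p was 0.2 (n = 3 each), adjusted over the 4 pairs to 0.267 on the deposited values and 0.2 with copies.

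Among the other genes of the pathway, 6 tested genes named as ribosomal proteins but outside the rule held none past the threshold. Their median log2 fold change was 0.52. This median is of deposited values without copies and counts the pseudogene entry Rps4l. The copy Gm9843, whose 31-base words all occur in Fau, held 66, 85 and 60 CPM against 111, 82 and 101, with overlapping groups. Another gene of this list also had copies above 0. Rack1, a scaffold on the 40S head, was measured at 241, 260 and 191 CPM against 325, 242 and 276. Rps4l stood apart, at 2, 6 and 6 CPM in wild type and 40, 19 and 38 CPM in TFEB-/-, without overlap. GENCODE places Rps4l on chromosome 6, from 148354656 to 148355598 on the plus strand, as a transcribed processed pseudogene. Its log2 fold change was 2.72 (SE 0.52, limma adjusted p = 0.0615), and after median-ratio scaling 2.49 (limma adjusted p = 0.0247). Only 8 of its 913 31-base words occurred in Rps4x, the ribosomal protein of the like name, which was measured without overlap but at a log2 fold change of 0.35 (SE 0.15). After median-ratio scaling the groups of Rps4x overlapped. Rps4l was named after its values were seen.

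The elongation factors also include a muscle and a general form. Eef1a1, which brings aminoacyl-tRNA to the ribosome in most tissues, was measured at 251, 294 and 257 CPM in wild type, compared with 1004, 507 and 688 CPM in TFEB-/-, without overlap. Its log2 fold change was 1.40 (SE 0.27, limma adjusted p = 0.0623), and after median-ratio scaling 1.16 (limma adjusted p = 0.0213). The muscle and neuron form Eef1a2 was measured at 1357, 1510 and 1067 CPM against 1709, 1477 and 1707 and overlapped (log2 fold change 0.33, SE 0.15, limma adjusted p = 0.26). The 3 copies of Eef1a1 found by the word rule, miRNA entries among them, were listed at 0 in every library. Eef1a1 shared no 31-base word with Eef1a2. Whether the fold changes of Eef1a1 and Eef1a2 differ from each other was not tested. Eef2, the translocase, was measured at 1268, 1064 and 963 CPM against 1811, 1265 and 1642, with 0 of the 12 elongation genes past the threshold on the deposited scale.

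Of 40 genes of ribosome assembly, 2 rose and none fell, a share near the 3.92% of all tested genes called higher. Nhp2, a protein of the H/ACA particles that modify ribosomal RNA, went from 8, 9 and 8 CPM to 14, 12 and 13 (log2 fold change 0.61, SE 0.09, limma adjusted p = 0.032). Rrp12, a factor for the export of pre-ribosomal subunits, went from 20, 15 and 16 CPM to 30, 29 and 28 (log2 fold change 0.76, SE 0.12, limma adjusted p = 0.0442). After median-ratio scaling Rrp12 was past the threshold (limma adjusted p = 0.0448) and Nhp2 was not (limma adjusted p = 0.122). Among 16 genes of translational control by mTORC1, 1 fell and none rose, where 0.523% of all tested genes were called lower and 3.92% higher. This was Eif4e, the cap-binding protein, with 99, 94 and 91 CPM in wild type against 67, 69 and 72 (log2 fold change -0.45, SE 0.06, limma adjusted p = 0.024).

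Of 17 other messenger RNAs with TOP tracts, none was past the threshold, and their median log2 fold change of 0.28 was 0.04 above that of all genes. Tpt1, the translationally controlled tumour protein and the most abundant of them, was measured at 855, 848 and 673 CPM against 734, 869 and 702 (log2 fold change -0.04, SE 0.14). Naca, a chaperone subunit at the tunnel exit, was measured at 631, 497 and 488 CPM against 741, 554 and 634. None of the 15 genes of ribosomal RNA transcription and none of the 15 genes of ribosome quality control passed the threshold on the deposited scale. The 9 snoRNA host genes in the table were listed at 0 in all libraries. Nearly all noncoding entries were at 0, with 7 of 3302 lincRNA and 10 of 639 processed transcript entries above 0 in some library. Of the protein-coding entries, 12810 of 21547 were above 0. The zeros of the host genes thus do not show that they were silent. Of 78 mitochondrial ribosomal proteins, 3 rose, Mrpl20, Mrps23 and Mrps18b, and none fell, again a share near the 3.92% of all genes. The median log2 fold change of this list was 0.19, or 0.05 below that of all genes. Mrps23 went from 61, 68 and 58 CPM to 115, 98 and 104 (log2 fold change 0.76, SE 0.09, limma adjusted p = 0.0225), and Mrps18b, named to complete the count, was not past the threshold after median-ratio scaling (limma adjusted p = 0.131).

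The start of the transcripts was read from RefSeq promoters of build GRCm38.p6, which matched 61 of the 83 member symbols with 72 promoters. Examples of 30 bases around the annotated start are shown on the transcribed strand to make the pyrimidine tracts visible, with runs of at least 5 C or T in capitals. They were chosen for illustration, the last 3 as paralogs.
Rpl35 (chr2:39005117-39005146, minus): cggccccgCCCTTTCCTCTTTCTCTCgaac
Rpl28 (chr7:4792950-4792979, plus): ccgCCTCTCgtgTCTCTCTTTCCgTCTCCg
Rpl13a (chr7:45128731-45128760, minus): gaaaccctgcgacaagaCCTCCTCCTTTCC
Rps6 (chr4:86857353-86857382, minus): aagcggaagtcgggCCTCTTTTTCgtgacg
Rpl22l1 (chr3:28805493-28805522, plus): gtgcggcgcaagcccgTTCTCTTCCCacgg
Rpl3l (chr17:24727811-24727840, plus): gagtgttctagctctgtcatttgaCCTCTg
Rpl7l1 (chr17:46782642-46782671, minus): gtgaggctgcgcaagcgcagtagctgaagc

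A run of at least 8 pyrimidines near the start stood in 24 of 72 member promoters (33.3%) and in 11.2% of all 32851 promoters in the RefSeq table. The letters CTCTTTC, searched on the transcribed strand close to the start, stood in 8 of the 72 (11.1%), those of Rpl18, Rpl26, Rpl28, Rpl35, Rpl35a, Rpl5, Rps15a and Rps26, and in 0.7% of all promoters. Over the whole promoter windows of 300 bases and on both strands, CCGGAA, the core bound by ETS factors, stood in 47.2% of member promoters and 14.9% of all, and the overlapping letters TTTCCG in 38.9% and 8.9%. CGCCATNTT, the letters bound by YY1, stood in 13.9% and 2.4%. CACGTG, the E-box core that TFEB and many other factors bind, stood in 8 of 72 member promoters (11.1%) and in 7.2% of all, and the longer palindrome of the CLEAR element, through which TFEB binds lysosomal genes, in 0 of 72 and in 0.3%. These are matches of letters in these windows, and several promoters belong to the same gene.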

How the data were processed

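Poly(A) libraries were made from 400 ng total RNA of 6 samples and read as pairs of 75 bases, per the labels. The deposited values are a score taken to be CPM that the authors rounded to whole numbers, since the table's name gives kallisto and CPM, and every library sums to between 999505 and 999655. The submitters' processing notes name several aligners and counters and build GRCm38, without versions or roles. Depth per library is unknown, so no counting interval is given.

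Symbols and positions came from GENCODE M21. The 12437 genes that reached 1 CPM in 3 or more libraries were tested with limma 3.58.1 (R 4.3.3) on log2(CPM + 0.5), with genotype as the only term, a mean-variance trend, and Benjamini-Hochberg adjustment over all tested genes (threshold 0.05). A fold change on this scale understates the change of low genes. Copies were added to their members, and libraries rescaled by median ratios, as alternatives. The sums with copies were chosen after the values were seen. Single ratios were compared by exact two-sided permutation, whose smallest p is 0.1. Levels per kilobase used the protein-coding transcript with the longest coding sequence. The fit was tried on simulated data of 12437 genes, each given the typical spread at its level and independent noise. It found 4.78% of the genes changed 1.5-fold, 46.0% at 2-fold and 99.7% at 4-fold, and called a mean of 3.4 unchanged genes. Changed genes were drawn from the more abundant ones. Differences in spread between genes of 1 level, and shifts shared within a library, were not simulated, so these rates may not hold for the data.

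The members and gene lists were chosen with earlier results of these data known. The rule for named genes takes Tfeb, the paralogs and their partners, Rpsa, members past the threshold, the 3 highest and 3 lowest fold changes of each subunit, the 5 highest and 5 lowest levels per length, Rplp0, Rplp1, Rplp2, Rpl5, Rpl11, Rps6, Rps27a, Eef1a1, Eef1a2 and up to 2 genes in each direction per list. Other alternatives were another pseudocount, 2 other filters, CPM without mitochondrial transcripts, quantile normalization, a replicate block, robust and weighted fits, and leaving out each library. Single values of some genes are not reported here, and counts and medians include them.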

Additional observations from a re-analysis of the deposited data

How the results depend on the processing

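The number of members past limma's threshold as higher (1) was 0 with a filter of 5 CPM, with median-ratio scaling, without mitochondrial transcripts and with copies, and 6 of 83 with array weights (Rpl12, Rpl13a, Rpl22, Rpl30, Rpl36al and Rps18), where 18.0% of all genes were called higher. Under robust fitting and quantile normalization the single call was Rpl13a and Rpl22 (limma adjusted p = 0.0475 and 0.0492) in place of Rpl12. Those weights were 3.41 for wild type 2 and 3.66 for TFEB-/- 3 and 0.422 to 0.733 for the others. It was 0 to 2 when each library was left out, and 0 each time with copies and median-ratio scaling. No member was called lower under any of these settings. The replicate block gave 0 calls, also with copies and with both copies and median-ratio scaling. Same-numbered libraries correlated at 0.144, -0.0492 and 0.0883 in their deviations from the group means. The same number was the best match for wild type 1 and 3, while wild type 2 correlated best with TFEB-/- 3 (0.104). The numbers were not taken as pairs in the main fit, and these values do not settle whether they are. The paralog ratios kept their direction under the alternatives run, with differences of -1.36 to -0.522 for Rpl3l to Rpl3 as libraries were left out. Log2 fold changes changed sign as follows, none with limma adjusted p below the threshold. Under median-ratio scaling, without mitochondrial transcripts and under quantile normalization they became -0.0695, -0.0557 and -0.0646 for Rpl7, -0.159, -0.146 and -0.139 for Rpl9, -0.043, -0.0293 and -0.0508 for Rps3a2 and -0.179, -0.165 and -0.21 for Rps7. Rpsa became -0.00465 under median-ratio scaling. With copies and median-ratio scaling Rpl7, Rpl9, Rps7 and Rpsa came to -0.0695, -0.155, -0.0111 and -0.00407, and with copies alone Rps2 came to 0.0203. Array weights gave -0.0628 for Rpl9 and -0.344 for Rps7. As libraries were left out in turn, the values ran from -0.112 to 0.0641 for Rpl22l1, -0.163 to 0.126 for Rpl3l, -0.0463 to 0.171 for Rpl9, -0.129 to 0.612 for Rps3a2 and -0.159 to 0.358 for Rps7. The cause of these changes was not tested. In the simplified simulation 4.78% of 1.5-fold changes were recovered, which limits what could be called among changes of that size or smaller.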
